A study of Arabidopsis thaliana with 5 samples.

Results

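Spliceosomal small nuclear RNA (snRNA) genes were taken as every gene of biotype snRNA on the 5 nuclear chromosomes of the gene table, and DRIP peaks were assigned to them where at least 1 bp overlapped. This gave 82 of the 37899 nuclear genes of the table. The symbols placed 14 of them in class U1, 23 in U2, 11 in U4, 14 in U5 and 14 in U6, and the other 6 were named U12, U4atac or U6atac (one of them spelled U6acat), the RNAs of the minor spliceosome. Because some names occur at more than 1 position, each gene of the table is called an entry here and carries its locus number where the name alone is not enough. DNA:RNA immunoprecipitation (DRIP) captures R-loops, in which an RNA is paired with a DNA strand, by means of the S9.6 antibody against such hybrids. All samples were wild-type Arabidopsis thaliana of the Columbia ecotype, harvested as whole seedlings at an age of 12 days, so values are averages over all seedling tissues. The series has 2 DRIP samples, 2 DRIP samples digested with RNase H, which removes the RNA of a hybrid, and 1 input sample. The 2 DRIP samples were analysed here, with the RNase H and input samples not analysed, so a peak is not set against its RNase H control. Strand-specific libraries also gave a w and a c list, named for opposite strands and recorded under DRIP replicate 1.

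Spliceosomes remove introns from pre-mRNA, and each snRNA is the core of a ribonucleoprotein particle. The U1 RNA pairs with the 5′ splice site and the U2 RNA with the branch point, while U4 keeps U6 paired until the spliceosome is activated, U5 holds the exon ends, and U6 forms the catalytic centre with U2. The minor spliceosome uses U12, U4atac and U6atac for a rare class of introns. In plants the U1, U2, U4 and U5 genes are transcribed by RNA polymerase II and the U6 genes by RNA polymerase III, in each case as short, intronless, strongly transcribed units present in many copies.

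The peak lists held 47291 peaks for replicate 1, 39888 for replicate 2, 34493 for w and 34069 for c. They carry no read counts, so the depth behind a peak is unknown. Each peak has the authors' fold value, the ratio of read pileup at its summit to the local background, whose list medians were 3.01 and 2.98 in the replicates, 3.88 in w and 3.90 in c. Folds are compared within a list or as a rank within it, since a common scale across lists is not given. Folds of the 2 replicates are set side by side only to describe their spread and to order entries by the smaller value. Nothing in the labels tells whether each replicate had its own batch of plants, and their spread may therefore be technical only. Copies of an snRNA class can be nearly identical in sequence, and how the authors placed reads that match several copies is not given, so signal could be split between or shared by copies.

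R-loop peaks lay at most snRNA entries. A DRIP peak was found at 49 of 82 entries in replicate 1 and at 46 in replicate 2, a mean of 57.9% ± 2.59 (SD, n = 2). All 46 entries with a peak in replicate 2 also had one in replicate 1, so 46 (56.1%) carried a peak in both. Of all nuclear genes 55.3% did, so by this count the snRNA entries lay near the background. The genes compared differ in length: the median entry was 153 bp long and the median nuclear gene 1796 bp. With only the gene midpoint counted, 38 snRNA entries (46.3%) lay under a peak in both replicates, against 13.5% of all nuclear genes. The midpoint of a long gene lies far from its ends and that of a short entry close to them, so these shares describe different parts of genes. The midpoint share was 70.0% for 287 snoRNA genes, 28.3% for 625 tRNA genes and 8.90% for 326 miRNA genes, which are also short. In this order snRNA entries stood between snoRNA and tRNA genes.

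By class, a peak in both replicates was found at 12 of 14 U1 entries, 14 of 23 U2 entries, 6 of 11 U4 entries, 5 of 14 U5 entries, 7 of 14 U6 entries and 2 of the 6 minor spliceosome entries. The order of the classes depended on how a peak was assigned. U1 was highest and U5 lowest of the 5 major classes by 1 bp overlap and by the midpoint. With the summit required inside the gene, U1 and U6 were equal at 5 of 14 entries, and U5 (2 of 14) stood above U2 (3 of 23) and U4 (0 of 11). With 250 bp added on either side, U5 (8 of 14) stood above U4 (6 of 11). Among entries that overlap no other gene, U4 had 3 of 3 and U1 3 of 4, and among those that overlap no protein-coding gene, U4 had 4 of 4 and U1 8 of 9. The replicates gave the same count for U1, U4 and the minor class and differed by 1 entry for U2, U5 and U6. The classes also differ in how many entries lie out of locus order beyond the first name at 2 positions of a chromosome, as described below. Of these 25 entries 3 had a peak in both replicates, and the class order was not examined without them. No test was made between classes, because several entries share a peak and the members are not replicates of each other.

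**Figure D1:**
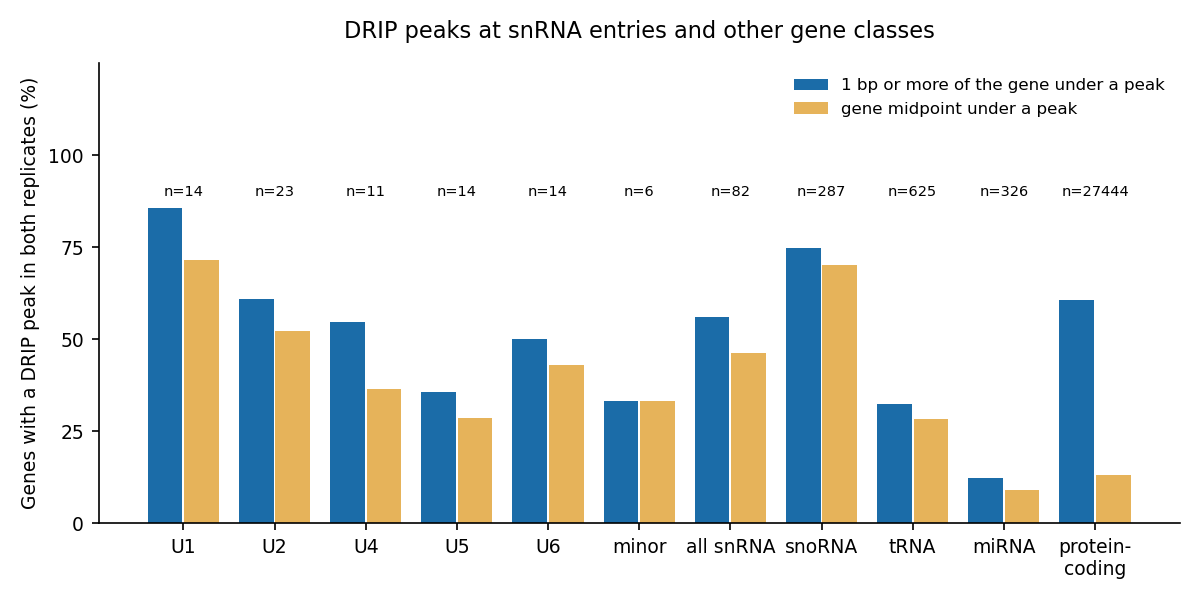
Bars give the percentage of genes with a DRIP peak in both replicates (vertical axis) for the snRNA classes and for other gene classes, with the number of genes above. Blue counts any overlap of 1 bp and yellow only the gene midpoint; all snRNA entries stand at 56.1% and 46.3%, and the yellow bar of protein-coding genes is far below their blue bar of 60.6%.

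Peaks at snRNA entries had a higher median fold than their lists, with a wide range. In both replicates, 17 of 82 entries (20.7%) had a fold in the top 5% of the list, against 4.51% of all nuclear genes. For the top 1% the count was 10 of 82 (12.2%), against 0.826% of all nuclear genes. Of these 10 entries, 4 were U6, 4 were U1, 1 was U4 and 1 was U5, while no U2 entry was among them. The U4 entry (U4.8) shares its peak with the U1 entry U1.9, so these are the same measurement. Among the 17 entries, U1.14p and U4.10 also share a peak. The top 5% share was 21.6% for snoRNA genes and 2.40% for tRNA genes. The 45 replicate 1 peaks at snRNA entries had a median fold of 4.51 and a median width of 467 bp, against 3.01 and 240 bp for the whole list. In replicate 2 the 43 peaks had a median fold of 4.67 and a median width of 520 bp, against 2.98 and 270 bp. Of these peaks, 16 in each replicate were in the top 5% of the list, while the lowest folds were 1.87 and 1.95. A wide peak is more likely to overlap a gene than a narrow one, so the whole list is not a like baseline for width or fold. Over all nuclear genes with a peak in both replicates, the median of the highest fold per gene was 3.75 and 3.57. For the snRNA entries it was 4.79 and 4.86.

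Replicate folds at an entry lay close together. Over the 46 entries the higher fold exceeded the lower by a median factor of 1.06 and at most by 1.27, the latter at the U2.4 entry AT3G08735. The replicate 2 fold was the higher one at 24 entries and the replicate 1 fold at 22. Spearman's rho across the 46 entries was 0.97, given as a description: 12 of the entries share 6 peaks with a neighbour in each replicate, and both samples share the genome positions and the local sequence. Differences between entries below a factor of about 1.27 lie within this spread. Larger differences were not tested either, since the spread of the replicates may be technical only. The order of entries is therefore given as a description only.

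**Figure D2:**
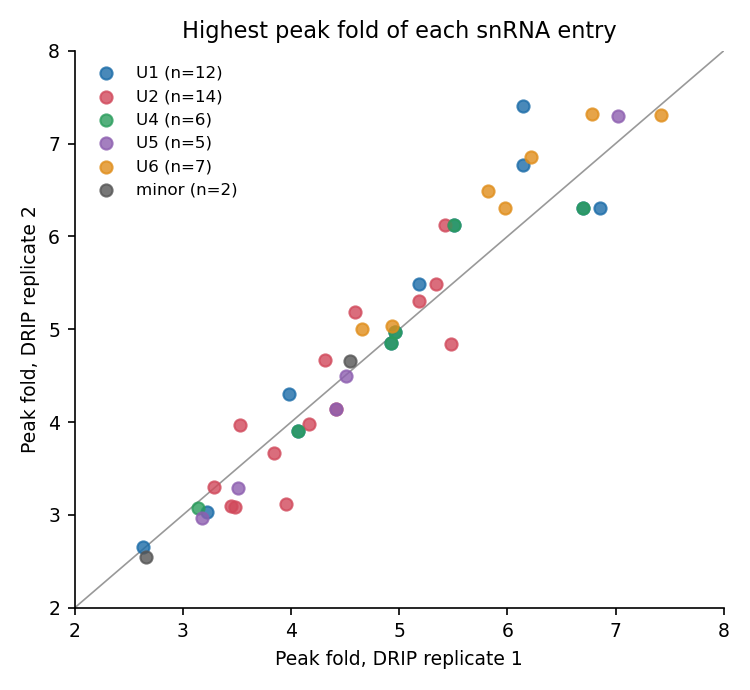
Each point is an snRNA entry with a DRIP peak in both replicates, placed by its highest peak fold in replicate 1 (horizontal axis) and replicate 2 (vertical axis) and coloured by class; the grey line marks equal folds. Entries that share a peak coincide, and U6 entries occupy the upper range, from 4.66 to 7.42 in replicate 1.

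U6 entries with a peak had the highest folds as a class. Their median fold was 5.98 in replicate 1 and 6.49 in replicate 2, and the median percentile within the list was 99.1 and 99.5. The highest of all 82 entries by the smaller of the replicate folds was U6-26 (AT3G13855), with 7.42 in replicate 1 and 7.31 in replicate 2. Its replicate 1 peak spanned chromosome 3, 4561050 to 4561512, and covered the whole entry of 101 bp. U6.4 (AT4G04615) had folds of 6.78 and 7.31, and U6.5 (AT4G08755) had 6.22 and 6.86. U6-29 (AT5G46315) had 5.98 and 6.31. These 4 entries lay above the 99th percentile in both replicates, and the range of each overlapped that of the next in this order. U6.3 (AT4G07875) had folds of 5.82 and 6.49, U6.6 (AT4G09135) 4.94 and 5.04, and U6-1 (AT3G14735) 4.66 and 5.0. U6.6 and U6-1 lay below the other 5 in both replicates. U6.7, named after its values were seen, had a replicate 1 fold of 3.70 and no peak in replicate 2. Its peak reached only 7 bp beyond the 76 bp entry on the higher side and 812 bp beyond it on the lower side, inside an annotated pseudogene. U6.8p and U6.9p had no peak in any list.

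Several U1 entries reached folds close to those of U6. U1.6 (AT3G01715) had folds of 6.86 in replicate 1 and 6.31 in replicate 2, U1.5 (AT1G08115) had 6.14 and 7.41, and U1.2 (AT4G07120) had 6.14 and 6.77. U1.9 (AT5G04315) had 6.70 and 6.31 from a peak it shares with U4.8. The replicates put U1.6 and U1.5 in opposite order. U1.14p (AT1G06873) had folds of 5.50 and 6.13, U1.12p (AT4G07145) 5.18 and 5.49, U1.10 (AT1G04907) 4.97 and 4.98, and U1.4 (AT5G04105) 4.92 and 4.86. The other 4 U1 entries with a peak in both replicates had folds from 2.63 to 4.30. No peak was found at U1.13p (AT5G07415) or U1.3 (AT5G07775). Both lie out of locus order, beyond the first name at 2 positions of their chromosome, as described below.

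Many U1 entries stand next to a U4 entry, and in most of these tandem pairs a common peak reached into both genes. There were 7 such pairs, with 188 to 281 bp between the genes, and they hold 7 of the 14 U1 and 7 of the 11 U4 entries. In 5 pairs a DRIP peak overlapped both entries in each replicate. The U4.8 and U1.9 pair had folds of 6.70 in replicate 1 and 6.31 in replicate 2, with peaks 917 and 811 bp wide. The U1.14p and U4.10 pair had 5.50 and 6.13, the U4.6 and U1.10 pair 4.97 and 4.98, and the U4.5 and U1.4 pair 4.92 and 4.86. The U1.8 and U4.7 pair was lowest, with 4.06 and 3.90. The peaks of the U4.5 and U1.4 pair were narrow, at 333 and 318 bp, and reached the midpoint of neither gene. In the sixth pair U1a* carried folds of 2.63 and 2.65 while U4.1* had no peak, and in the seventh neither U4.3p nor U1.13p had one. The sixth and seventh pairs lie out of locus order on chromosome 5, beyond its first name at 2 positions. Whether such entries are placed correctly cannot be told, as described below. A peak over both genes cannot be assigned to either, so the U1 and U4 values of the 5 pairs with a common peak are the same measurement.

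The order of the genes in a pair went with the strand list. In the 3 pairs with a common peak in which U4 has the lower coordinate, the peak over both genes was in the c list, with folds of 7.57 (U4.6 and U1.10), 6.11 (U4.5 and U1.4) and 9.54 (U4.8 and U1.9). In the 2 pairs in which U1 has the lower coordinate, it was in the w list, with folds of 7.23 (U1.14p and U4.10) and 4.57 (U1.8 and U4.7). The exception was a further w peak at U1.4 with a fold of 2.95. At U1a*, which has the higher coordinate in its pair and lies out of locus order as stated above, a w peak of 3.33 was found and no c peak. This pattern was noticed in the data and was not tested.

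Outside the tandem pairs, 6 of 7 U1 entries and 1 of 4 U4 entries had a DRIP peak in both replicates. The U4 entry was U4.2 (AT3G06900), with folds of 3.14 and 3.08, near the median of each list. U4.4 and U4.11p had no peak in any list, and U4.11p lies out of locus order beyond the first name at 2 positions of its chromosome.

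U2 entries had the lowest median fold of the 5 major classes, with 4.24 in replicate 1 and 4.06 in replicate 2. U5 was next, with 4.42 and 4.14. U2.11 (AT1G04733) had folds of 5.42 and 6.13, the U2.6 entry AT3G56705 had 5.34 and 5.49, and U2.14 (AT1G05057) had 5.18 and 5.30. Next came the U2.4 entry AT3G56825 with 5.48 and 4.84, the U2.3 entry AT3G57765 with 4.59 and 5.19, U2.5 (AT5G09585) with 4.32 and 4.67, and U2.17 (AT5G02245) with 4.42 and 4.14. The U2.17 peaks were 1523 and 1507 bp wide and also covered U5.10 (AT5G02255), the only tandem pair of other classes. The other 7 U2 entries with a peak in both replicates had folds from 3.08 to 4.16. No peak was found at U2.13 or U2.18p, and U2.16 (AT5G08810) was the only entry with a strand peak (w, 3.47) and no DRIP peak.

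Few U5 entries lay under a peak by 1 bp overlap, and one of them ranked second of all entries by the smaller fold. U5.6 (AT1G04263) had folds of 7.02 in replicate 1 and 7.29 in replicate 2, in peaks only 240 and 234 bp wide around a gene of 101 bp. No other annotated gene overlapped this entry. U5.5 (AT1G05853) had 4.51 and 4.50, and U5.10 had 4.42 and 4.14 from the peak shared with U2.17. The remaining 2 U5 entries with a peak in both replicates had folds from 2.97 to 3.51. U5.7 (AT4G04185), named after its values were seen, had a replicate 1 peak of 2.52 and none in replicate 2. U5.2 and U5.12 had no peak, and both lie out of locus order beyond the first name at 2 positions of their chromosome.

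Among the minor spliceosome entries, U12 (AT1G61275) had folds of 4.55 and 4.66 and U6acat (AT5G40395) 2.66 and 2.54. The U6acat values lay at percentiles 34.7 and 28.1 of their lists, and U6acat ranked last of the 46 entries by the smaller fold. The other 4 entries, among them U6atac2 and the U12 entry AT1G08367, had no peak in any list.

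Strand-specific peaks were found on a single strand at nearly all entries that had one. A w peak lay at 27 of 82 entries (32.9%) and a c peak at 26 (31.7%), against 49.9% and 49.5% of all nuclear genes. There were 24 entries with w only, 23 with c only and 3 with both. Of all nuclear genes 26.1% carried both, but these are longer. Among entries with a strand peak, 94.0% had peaks on 1 strand only, against 93.6% for tRNA and 89.9% for snoRNA genes, so short RNA genes did not stand far apart in this respect. Every entry with a DRIP peak in either replicate also had a strand peak. The w and c lists are recorded under replicate 1 and have no replicate of their own.

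U6 entries had the highest fold of all snRNA entries in each strand list. U6.4 had a c fold of 12.3, U6-26 a w fold of 11.8, U6.5 a c fold of 11.3, U6-29 a w fold of 10.8 and U6-1 a w fold of 10.1, in each case with no peak on the opposite strand. The U6.4 value is the highest of all 34069 c peaks. Among other classes, U1.2 had a w fold of 11.1, U5.6 a c fold of 10.6 and U1.5 a c fold of 9.91. By class, 6 U6 entries were w only and 2 were c only, 7 U1 entries were w only and 4 c only, and 8 U2 entries were w only and 6 c only. All 6 U5 entries with a strand peak were c only. No gene orientation was used here, so whether the w or c peak lies on the template strand was not tested. The 3 entries with both were U1.4 (w 2.95, c 6.11), the U2.4 entry AT3G56825 (w 3.54, c 6.39) and the U2.2 entry AT3G57645 (w 4.53, c 4.89). The latter entries are annotated as 883 and 863 bp long, and no peak pair on opposite strands lay over the same gene midpoint. With 250 bp added on either side, 16 entries had peaks of both lists.

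**Figure D3:**
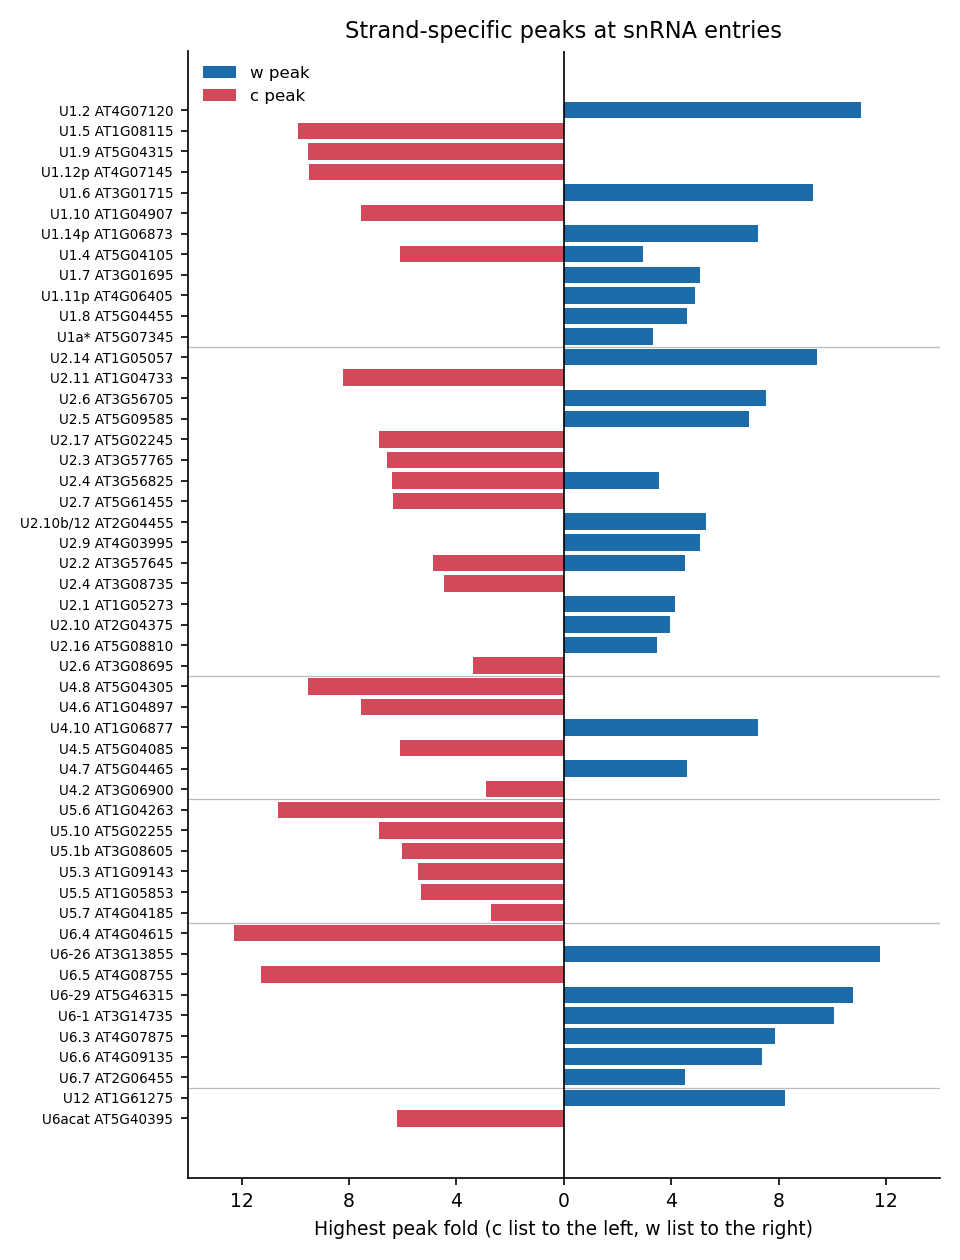
Horizontal bars give the highest fold of w peaks (blue, to the right) and c peaks (red, to the left) at the 50 snRNA entries with a strand peak, grouped by class and sorted by fold. Bars point one way at 47 entries and both ways at 3, and all U5 bars point to c.

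At most U6 entries with a strand peak, the peaks reached out on opposite sides for w and c. At U6-26 the w peak extended 81 bp beyond the lower end of the gene and 467 bp beyond the higher end, and its summit lay 29 bp above the gene centre. U6-1 (47 and 368 bp), U6.3 (79 and 249 bp) and U6.6 (157 and 375 bp) reached further on the higher side in the same way, with summits 32, 63 and 204 bp above the centre. The c peaks of U6.4 (352 bp below and 65 bp above) and U6.5 (361 and 39 bp) reached further on the lower side, and their summits lay 46.0 and 39.5 bp below the centre. The DRIP peaks of the replicates showed the same sides at these 6 genes. The exceptions among U6 entries with a strand peak were U6.7, whose w peak reached further on the lower side, and U6-29, whose annotated length of 912 bp exceeds its peak. Of the U1 entries, 5 of 7 with w only reached further on the higher side and 3 of 4 with c only on the lower side. Among these, the w peaks of U1.14p and U1.8 and the c peaks of U1.10 and U1.9 are shared with a U4 neighbour. The c peak of U1.5 reached nearly as far on either side (150 bp below and 149 bp above). U4 entries showed the opposite sides, with 2 of 2 w only entries reaching further on the lower side and 4 of 4 c only entries on the higher side. Most of the U4 peaks are shared with a U1 neighbour. A shared peak reaches toward the neighbouring gene by construction, so these sides cannot be read as a trait of U1 or U4. Among U2 entries 6 of 8 with w only reached further on the lower side, and c only entries were split 3 and 3, as were those of U5. Over all classes, of 24 entries with w only, 11 reached further on the higher side and 13 on the lower, and of 23 with c only, 12 reached further on the higher side and 11 on the lower. These sides were noticed in the data and were not tested.

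**Figure D4:**
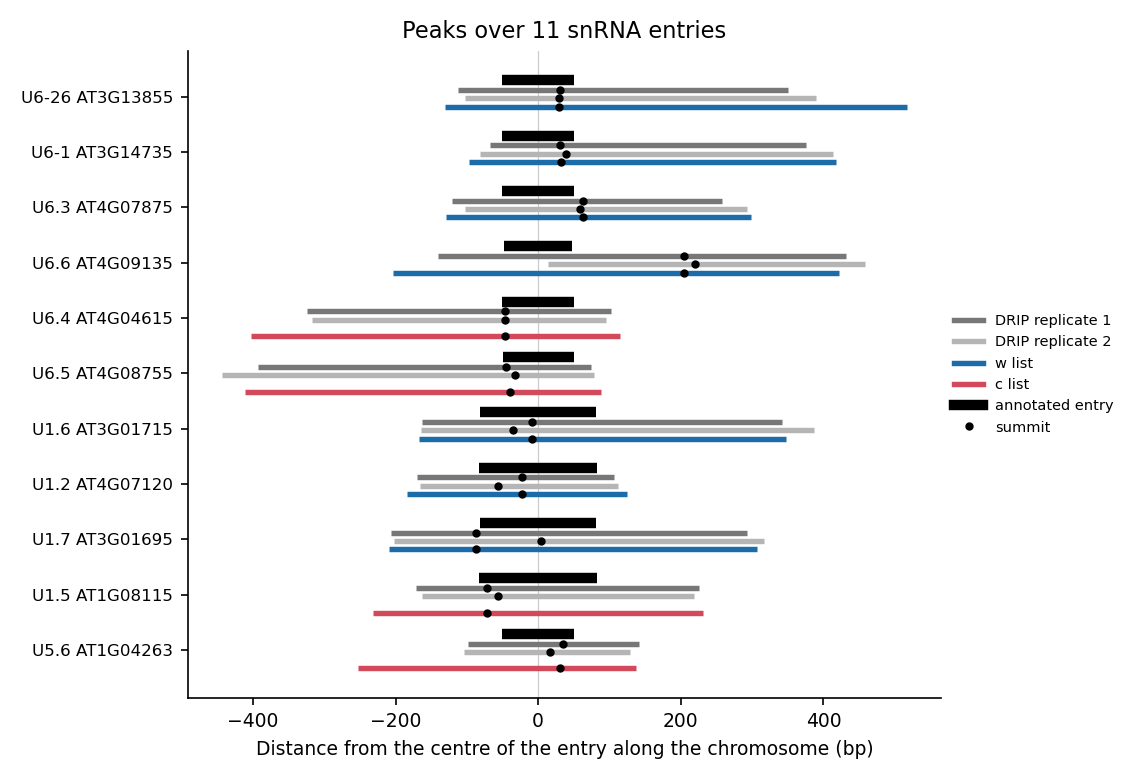
For 11 entries, chosen after the values were seen, black bars mark the annotated gene and coloured lines the peaks of each list by distance from the gene centre in bp, with higher coordinates to the right and dots at the summits. At the U6 genes drawn, w peaks reach up to 467 bp beyond the gene to the right and c peaks up to 361 bp to the left, while the U1 and U5 entries drawn reach out on either side. U6.7 and U6-29, whose w peaks reach further to the left, are not drawn.

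Peaks often reached past the snRNA gene into its neighbours. Of the 45 replicate 1 peaks, 27 also overlapped a protein-coding gene, and of the 43 replicate 2 peaks 25 did. Signal from a neighbouring gene cannot be told apart from signal of the snRNA gene in these peaks. The whole entry was covered in 33 of 51 overlaps in replicate 1 and 30 of 49 in replicate 2. A summit inside the entry in both replicates was found at 15 entries, including U6-26, U5.6, U6.4, U6.5, U1.6, U1.2 and U1.5. Of 30 entries that overlap no other annotated gene, 18 (60.0%) had a peak in both replicates. Of 37 entries that overlap a protein-coding gene, 17 (45.9%) did, and of the other 45 entries 29 (64.4%).

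Some snRNA names stood at 2 positions of the gene table, and the entries differed in their peaks. For 8 names (U12, U2.2, U2.3, U2.4, U2.6, U2.7, U6.29, U6atac, with spelling variants joined) one entry has a locus number that falls between those of the flanking protein-coding genes and the other has not. The second entry starts 3665 bp further along on chromosome 1, 11074 to 11377 bp on chromosome 3 and 17234 to 17538 bp on chromosome 5. All 8 entries in locus order had a DRIP peak in both replicates, and 1 of the 8 second entries did. For U6.29 the entry in order, AT5G46315, had folds of 5.98 and 6.31 and a w fold of 10.8, while AT5G06815 had no peak in any list. For U12, AT1G61275 had 4.55, 4.66 and a w fold of 8.25, while AT1G08367 had none. The second entry with peaks in both was AT3G08735 (U2.4), with 3.96 and 3.12, and AT3G08695 (U2.6) had 1.87 in replicate 1 only. The entries in order were also longer, with a median of 847 bp against 194.5 bp, and at the midpoint the counts were 7 and 0 of 8.

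**Figure D5:**
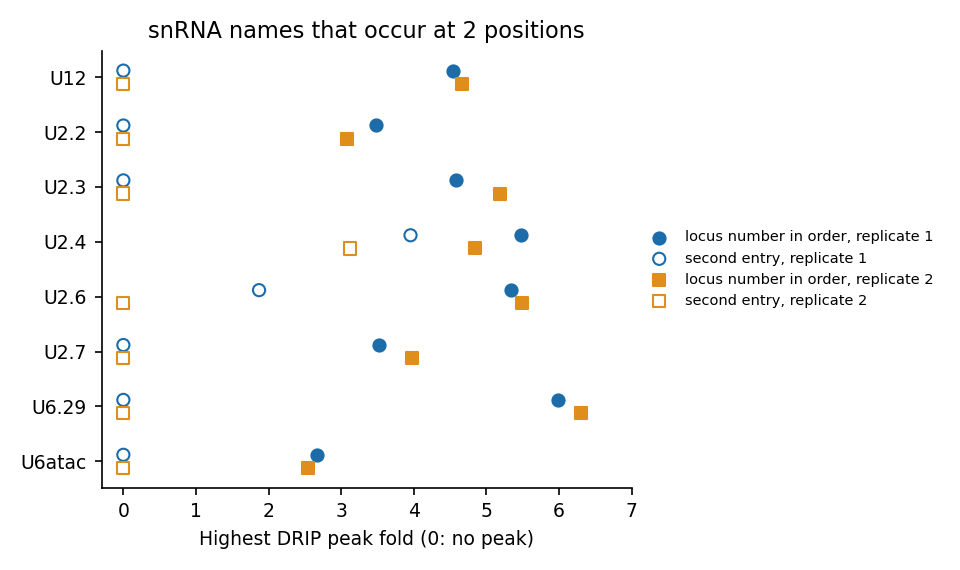
For the 8 snRNA names that occur at 2 positions, filled symbols give the highest DRIP fold at the entry whose locus number follows its neighbours and open symbols that at the second entry, with 0 for no peak; blue circles are replicate 1 and orange squares replicate 2. All filled symbols lie between 2.54 and 6.31, and 13 of the 16 open symbols lie at 0.

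The position of an entry went with its peaks in a wider sense. Each of the 13 entries in locus order, including 5 with no second entry, had a peak in both replicates. Among the 69 entries out of locus order, those beyond the first such double entry of their chromosome had a peak in both replicates in 3 of 25 cases (12.0%), and those before it, or on a chromosome with none, in 30 of 44 (68.2%). Of 32 entries with no peak in any list, 20 lay in the first of these sets. Other genes were split by position only, whether or not in locus order. Their shares beyond and before differed little: 75.5% and 74.8% for snoRNA genes, 33.9% and 32.2% for tRNA genes, and 60.7% and 60.5% for protein-coding genes. The snRNA share beyond leaves out the 8 entries in order at names with 2 positions, all with a peak in both replicates. The sets compared are therefore not alike. Whether the second entries and their neighbours out of order are placed correctly in the table cannot be told from it, and the part of this in the counts was not tested. This division was chosen after the values were seen. Without the 8 second entries, 45 of 74 (60.8%) had a peak in both replicates.

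Most entries with names ending in p had no peak. Of 11 such entries, with a median length of 69 bp, 3 (U1.14p, U1.12p and U1.11p) had a DRIP peak in both replicates and 8 had no peak in any list. Of the 71 other entries 43 (60.6%) had a peak in both. By length, 4 of 15 entries under 90 bp and 42 of 67 longer ones did.

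Genes of proteins that act with the snRNAs were examined in the same way. A list of 35 genes held U1 and U2 particle proteins, the Sm ring, which binds U1, U2, U4 and U5, the LSM ring, which binds U6, further spliceosome components, and factors of snRNA transcription and processing. A DRIP peak in both replicates lay at 18 of 35 (51.4%), against 60.6% of all protein-coding genes, at 10 of the 22 Sm and LSM genes (45.5%) and at 8 of the other 13 (61.5%). Their median fold, over the 18, was 3.37 in replicate 1 and 3.11 in replicate 2, against 3.83 and 3.63 over all protein-coding genes with such peaks. The Sm and LSM genes had medians of 3.11 and 2.98, and the other genes of the list 4.08 and 3.52, so the lower values lay with the Sm and LSM genes. These genes were also shorter, with a median of 1616 bp against 3370 bp for the others and 2078 bp for all protein-coding genes. A longer gene has more room for a peak and for a high fold, and the part of length was not tested. The highest were emb1507 (5.66 and 5.76), U1-70K, a protein of the U1 particle (4.71 and 4.45), AT4G03120 (4.34 and 4.24) and SRD2, an activator of snRNA transcription (4.63 and 3.84). U2A', a U2 particle protein, and TBP2, a TATA-binding protein, had no peak in any list.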

How the data were processed

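Per the submitters' processing notes, CASAVA, BWA 0.7.12 and MACS2 were used with the TAIR10 build; their settings, the control library and whether samples were pooled: not given in the sources used here. The deposited narrowPeak files give each peak's fold ratio over local background, its -log10 p-value and -log10 q-value, and the summit offset, all from the authors' MACS2 run. The smallest deposited -log10 q-value was 1.30.

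Genes came from the RefSeq table of TAIR10.1, so only peak coordinates are printed. Shifting peaks by up to 1000 bp in steps of 50 bp gave the largest overlap with protein-coding genes at 0 bp in all 10 combinations of replicate and chromosome. Peaks were joined to genes by at least 1 bp, and the highest fold per gene was kept. The overlap code was tested on simulated data. Sequences and gene orientation were not used here. Members and lists were chosen with earlier results of these data known. Named are the 30 entries with the highest smaller-of-replicates fold, up to 2 per class without DRIP peak, and from the protein list 4 highest and 2 without. Other entries named (U1.8, U1.11p, U1a*, U2.2, U2.16, U4.1*, U4.2, U4.3p, U4.7, U5.7, U6.7, U6acat and the second entries of U2.4, U2.6 and U6.29) were chosen after their values were seen. No significance test was made, since only peak lists of the DRIP group were analysed here. Python 3.11.15 and pandas 2.3.3 were used.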

Additional observations from a re-analysis of the deposited data

How the results depend on the processing

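The count of entries with a DRIP peak in both replicates, 46 of 82, was 15 with the summit required inside the gene, 18 of the 30 entries that overlap no other gene, and 29 of the 45 that overlap no protein-coding gene (chosen after seeing the data). The w count of 27 became 12, 11 and 18 under these settings, and 41 with 250 bp added on either side. The c count of 26 became 10, 9 and 15. The subsets hold fewer entries by construction. With 50% of the gene under a peak, peaks in the upper 50% by fold, a -log10 q of at least 5, the midpoint alone (added later) or the double entries left out (added later), each count stayed within a factor of 1.5, and the first ranged from 37 to 45. Without one replicate it was 46 to 49, and for the protein list 19 to 22, against 18. With peaks in the upper 50% by fold the protein list count was 10. Of the 30 named entries, 12 kept a summit inside the gene in both replicates. The planned count of promoter elements was not run, since promoter sequences were not used here. No paired analysis was possible because only the DRIP group was analysed. Depth is unknown, so a missing peak does not show that no R-loop was there.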

Other observations

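Chromosome 1 holds 22 snRNA entries, of which 12 had a DRIP peak in both replicates, chromosome 2 holds 4 with 2, chromosome 3 holds 19 with 11, chromosome 4 holds 10 with 8, and chromosome 5 holds 27 with 13. The share of all genes with a peak was not computed by chromosome, so these counts set no chromosome apart. Names at 2 positions occur on chromosomes 1, 3 and 5 only. Of the entries out of locus order beyond the first of them, 3 of 25 had a peak in both replicates.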
